A study of Mus musculus with 3 samples.

Results

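Ifitm1, Ifitm2, Ifitm3, Ifi27, Ifi27l2a, Bst2 and Lgals3bp are genes induced by interferon, most of whose products sit in membranes, and they were followed across the cell classes of the mouse hypothalamus. They were chosen by name and are 7 of the 32285 genes in the count tables. Hypothalamic cells of 8-week-old male mice were profiled by single-cell RNA sequencing, with 1 library in each of 3 groups. HS mice were exposed to heat, QS mice had been exposed and were then let recover, and PF mice were a control group whose food intake was matched to that under heat. The sources used here do not state the genotype, the strain, how many mice a library pools, the temperature or how long the recovery lasted, and RT mice were not analysed here. With 1 library a group there is no replicate check and no test, so "higher" and "lower" describe these libraries. HS/PF and QS/PF share the PF library, so whatever is particular to that library enters both.

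Interferons are secreted proteins that bind receptors on the cell surface and, through JAK kinases and STAT and IRF transcription factors, switch on many genes at promoter elements named ISRE and GAS. IFITM proteins are small membrane proteins that hinder the fusion of enveloped viruses with cell membranes, and IFITM3 acts mainly in endosomes. Bst2 (tetherin) holds budding virus particles at the cell surface, Ifi27 and Ifi27l2a belong to a family of small hydrophobic proteins found in membranes of organelles, and Lgals3bp encodes a secreted glycoprotein that binds galectins. The name of membrane genes therefore does not cover Lgals3bp, and whether the levels reflect a tonic interferon signal was not tested.

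On GRCm38 (mm10, GENCODE M21), the IFITM genes lie together on chromosome 7, with Ifitm1 at chr7:140967221-140969825 on the plus strand, Ifitm2 at chr7:140954837-140955987 on the minus strand and Ifitm3 at chr7:141009586-141010770 on the minus strand. Ifi27 (chr12:103434211-103440239, plus strand) and Ifi27l2a (chr12:103442167-103443680, minus strand) are neighbours on chromosome 12. Bst2 lies at chr8:71534255-71537456 and Lgals3bp at chr11:118392751-118402092, both on the minus strand. All 7 are annotated as protein-coding. Of the 50-base words in the last 500 bases of their transcripts, which a 3' kit reads, 41.9% in Ifitm2, 14% in Ifitm3 and 11.8% in Ifitm1 also occur in other genes, and 4.43%, 7.76% and 3.33% occur in one of the other members. Ifitm2 also shares 1101 bases with Gm45717 on the same strand, which is not among the counted genes. Counts of these 3 genes may therefore be less certain than those of the other members. In Ifi27, Bst2 and Lgals3bp 0% of the words were shared, and in Ifi27l2a 0.483%. Words shared with Gm45717 were not told apart from those shared with other genes, and the effect on the counts was not tested.

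The promoter windows of 4 members are shown because they differ in the interferon elements they hold. They are RefSeq windows on GRCm38.p6 that run from 250 bases before to 50 bases after the annotated start, 5′ to 3′ on the gene's strand. Capitals mark matches to the ISRE core (GAAA, any 2 bases, GAAA) and to the GAS core (TTC, any 3 bases, GAA), both searched on both strands, and where the 2 overlap the capitals run together.
Ifitm3 (chr7:141010695-141010994, minus strand): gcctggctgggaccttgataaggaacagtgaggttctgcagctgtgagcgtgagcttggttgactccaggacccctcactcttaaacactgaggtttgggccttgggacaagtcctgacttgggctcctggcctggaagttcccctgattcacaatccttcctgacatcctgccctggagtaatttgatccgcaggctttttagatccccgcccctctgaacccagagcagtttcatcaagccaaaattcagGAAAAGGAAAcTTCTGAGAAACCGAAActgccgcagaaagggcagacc
Ifitm2 (chr7:140955912-140956211, minus strand): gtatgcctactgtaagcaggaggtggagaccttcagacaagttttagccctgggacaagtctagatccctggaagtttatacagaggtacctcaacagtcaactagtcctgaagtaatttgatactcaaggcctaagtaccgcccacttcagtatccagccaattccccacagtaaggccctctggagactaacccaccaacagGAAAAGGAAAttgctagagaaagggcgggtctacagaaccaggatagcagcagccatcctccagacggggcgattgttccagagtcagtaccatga
Bst2 (chr8:71537423-71537722, minus strand): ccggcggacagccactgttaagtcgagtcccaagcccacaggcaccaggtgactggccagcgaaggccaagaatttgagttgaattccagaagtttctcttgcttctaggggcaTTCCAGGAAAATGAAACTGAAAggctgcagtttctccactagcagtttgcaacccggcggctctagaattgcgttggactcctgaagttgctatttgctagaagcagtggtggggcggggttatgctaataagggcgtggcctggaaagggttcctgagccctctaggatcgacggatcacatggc
Ifitm1 (chr7:140967826-140968125, plus strand): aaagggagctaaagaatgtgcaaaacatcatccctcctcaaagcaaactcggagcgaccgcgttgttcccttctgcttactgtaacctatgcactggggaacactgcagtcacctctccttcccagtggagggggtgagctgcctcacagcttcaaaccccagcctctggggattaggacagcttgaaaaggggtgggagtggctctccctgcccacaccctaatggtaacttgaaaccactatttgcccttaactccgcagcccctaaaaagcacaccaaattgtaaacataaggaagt
The ISRE core occurs 2 times in the Ifitm3 and Bst2 windows, 1 time in that of Ifitm2 and 0 times in those of Ifitm1 and Lgals3bp. The GAS core occurs 1 time each in Ifitm3 and Bst2. Over all 32851 promoter windows, 3.44% hold the ISRE core and 8.3% the GAS core, and of 20 other interferon-induced genes with a window 13 hold the ISRE core. A match describes letters and not a bound site. The Ifitm1 window lies inside the annotated gene, which starts at chr7:140967221, so the bases before that start were not searched. Ifi27 and Ifi27l2a are named only.

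The files held 12510 (HS), 11720 (QS) and 12836 (PF) cell barcodes with 103891747, 93295920 and 100727912 UMIs, the unique molecular identifiers that count captured transcripts. After filtering, 34289 cells remained, with medians of 6298 (HS), 6162 (QS) and 6143 (PF) UMIs per cell. Cells were sorted into classes by the number of 7 marker genes detected for each class, and 30734 cells were given one. The class names below mean cells gated in this way, such as endothelial-like or microglia-like cells. Neuron-like cells were too few to compare, with 30 in HS, 49 in QS and 23 in PF. The libraries shared 37 (HS and PF), 51 (QS and PF) and 40 (QS and HS) barcodes. Levels are in CPM, the usual scaled proportion of UMIs, here those of a gene among all UMIs of its class in a library. Ratios of CPM carry exact 95% intervals, which like those of shares cover counting error only.

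Across all cells, Ifitm3 stood at 1306 CPM in HS, 950.5 CPM in QS and 1757 CPM in PF. Ifi27l2a stood at 127.1, 86.26 and 185.4 CPM in HS, QS and PF. Ifi27 showed no such spread, with 246.2 CPM in HS, 244.2 CPM in QS and 237.6 CPM in PF. The remaining members were lower in QS than in PF: Ifitm1 had 91.94 (HS), 51.82 (QS) and 84.67 CPM (PF), Ifitm2 had 273.6, 183.9 and 299.3 CPM, Bst2 had 183.7, 164.3 and 222.1 CPM, and Lgals3bp had 61.18, 56.52 and 84.07 CPM, in the same order. These totals depend on which cells each library caught, so the classes are taken in turn. Fewer cells of a kind and less RNA per cell cannot be told apart in a total, and the class values below remove only the difference in class size.

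For each of the 7 genes, the lowest class had a mean of at most 6.98% of that of the highest. In the order of 11 classes, those of 30 cells or more in each library, Ifitm3 was highest in endothelial cells, which line the vessels, at 2697 CPM in HS, 2321 CPM in QS and 3560 CPM in PF. Fibroblasts, pericytes and border-associated macrophages followed, each overlapping the class before it over the 3 libraries. Oligodendrocytes came last, with 70.6 (HS), 37.25 (QS) and 110.9 CPM (PF), a mean of 2.55% of the endothelial level. Endothelial cells held 68.86% of the Ifitm3 UMIs of HS, 72.92% of those of QS and 72.53% of those of PF.

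Among the same 11 classes, Ifitm1 and Ifitm2 were highest in other classes of the vessel wall and meninges. Ifitm1 was highest in pericytes, the contractile cells wrapped around capillaries, at 744.7 CPM in HS, 986.8 CPM in QS and 839.9 CPM in PF, with no overlap with the endothelial cells that came next at 139.6, 72.2 and 132.5 CPM. Ifitm2 was highest in fibroblasts, at 954.2 CPM in HS, 663.6 CPM in QS and 1001 CPM in PF. Its next classes, endothelial cells (506, 434.7 and 540.8 CPM) and pericytes (500.1, 468.9 and 481.6 CPM), overlapped each other. Both genes were low in astrocytes, microglia and oligodendrocytes, where no class mean exceeded 24.45 CPM.

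Ifi27 was the gene whose lowest class reached that 6.98%. It was highest in tanycytes, the ventricle-lining cells of the hypothalamic floor, at 1066 CPM in HS, 952.6 CPM in QS and 976.1 CPM in PF. Ependymal cells came next at 317.6, 383 and 311.9 CPM, and from there to vascular smooth muscle each class overlapped the one below it. Microglia were last, at 66.69 CPM in HS, 71.06 CPM in QS and 71.35 CPM in PF.

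Among the 11 classes, the other 3 members were highest in macrophages or in microglia, the resident macrophages of the brain. Ifi27l2a was highest in border-associated macrophages, the macrophages of meninges and perivascular spaces, at 623 CPM in HS, 562.9 CPM in QS and 1011 CPM in PF, overlapping T or NK cells at 475.6, 801.7 and 686.4 CPM. Bst2 was highest in the same macrophages, at 655.1, 653.5 and 753.2 CPM, and next in endothelial cells at 309.4, 326.2 and 367.2 CPM, without overlap. Lgals3bp was highest in microglia, at 120.6 CPM in HS, 120.6 CPM in QS and 184.6 CPM in PF, and overlapped border-associated macrophages at 134.3, 110 and 136.7 CPM. The proportion of Ifi27l2a to Ifitm3 differed between classes: Ifi27l2a UMIs per Ifitm3 UMI were 1.26 (HS), 1.39 (QS) and 1.16 (PF) in microglia but 0.0334, 0.037 and 0.0406 in endothelial cells.

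The rarest blood-derived cells held high levels of several members. Neutrophils (34 cells in HS, 13 in QS and 7 in PF) had 6800 CPM of Ifitm1 in HS, 5200 CPM in QS and 3963 CPM in PF, and 4120, 3309 and 4429 CPM of Ifi27l2a. Their Ifitm3 stood at 5156 CPM in HS, 2931 CPM in QS and 3613 CPM in PF, above endothelial cells, though in PF the intervals overlap. Their Ifitm2 stood at 3212, 3262 and 2176 CPM, above fibroblasts. Monocytes or dendritic cells (20, 12 and 8 cells) had 2957, 3483 and 1818 CPM of Ifi27l2a. These cells were too few to be compared between libraries.

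**Figure D1:**
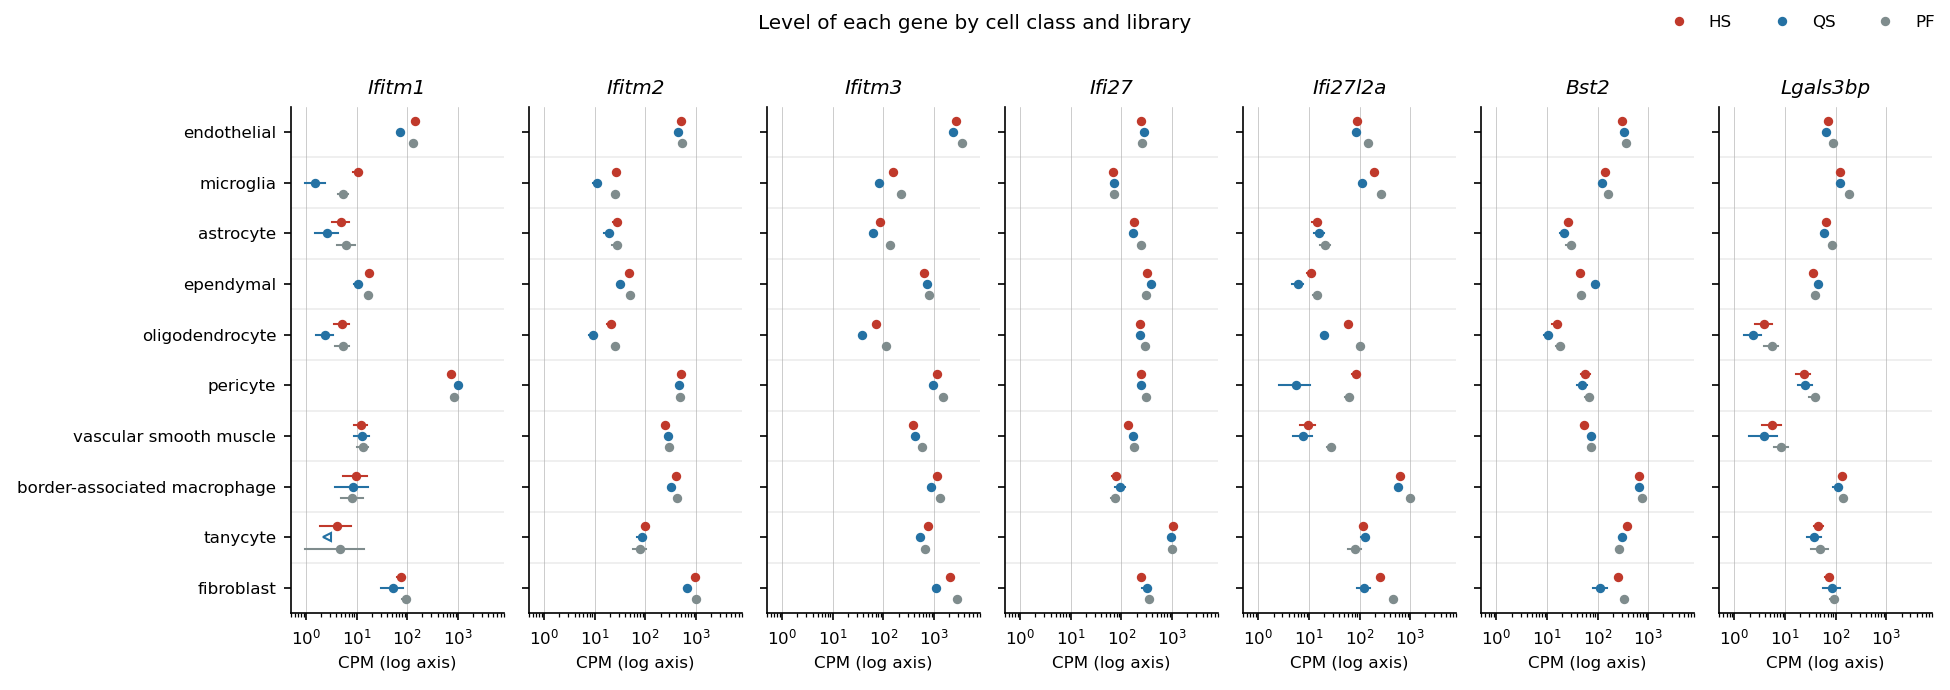
Level of each of the 7 genes in CPM (log axis) in 10 cell classes, with 1 point for each library (HS, QS and PF) and bars for the exact 95% Poisson interval. An open arrow marks the limit that a count of 0 allows (Ifitm1 in QS tanycytes), and Ifitm3 is highest in endothelial cells while Ifitm1 is highest in pericytes.

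The genes whose levels over the 21 pairs of a class and a library were most like each member were found, among genes with at least 50 CPM in 1 pair or more, by Pearson's r of log2(CPM + 1), given as a description. The points share 3 libraries and 7 classes, and with them depth and free RNA. For Ifitm3 these were Tpm4, a tropomyosin of the actin cytoskeleton (r = 0.963), and Smco4 (r = 0.938). For Bst2 they were Psme1, a subunit of the proteasome activator (r = 0.986), and Tapbp, the tapasin that loads peptides onto MHC class I (r = 0.97). For Ifi27l2a they were the chemokine Cxcl2 (r = 0.88) and Slfn2 (r = 0.866), for Lgals3bp Lpin2 (r = 0.94) and Tor3a (r = 0.939), and for Ifi27 Klhl12 (r = 0.944) and Babam1 (r = 0.935). For Ifitm1 they were Rhod (r = 0.958) and Hic1 (r = 0.955), and for Ifitm2 Grb10 (r = 0.985) and Ebf1 (r = 0.982). Among the members themselves, Ifitm2 and Ifitm3 were most alike (r = 0.867), and Ifi27 and Ifi27l2a were not alike (r = -0.42) although they are neighbours.

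For the comparison of libraries, a gene was called in a class when its ratio reached 1.5 in either direction, the interval left out 1, and the fuller library had 30 UMIs or more. Across the 7 classes that had 200 cells or more in each library, the 7 genes give 49 pairs of a gene and a class, all of which were measured. In HS/PF, 8 pairs were called lower and 1 higher, where 1.76% of all pairs of a gene and a class were called lower and 2.09% higher. In QS/PF, 23 pairs were called lower and 1 higher, against 3.39% and 1.7% of all pairs. In QS/HS, 13 were called lower and 1 higher, against 4.03% and 2.24% of all pairs. The median log2 ratio of the 49 pairs was -0.30 in HS/PF, -0.52 in QS/PF and -0.20 in QS/HS, where that of all pairs was -0.0054, -0.019 and -0.0145. Of the 49 ratios, 41 in HS/PF and 44 in QS/PF were below 1. Some classes hold little of a gene, and among the 30 pairs with a mean of at least 10% of that of the highest of the 7 classes 5 were called lower and 0 higher in HS/PF, 9 lower and 1 higher in QS/PF, and 4 lower and 1 higher in QS/HS. The share of all genes called under that filter was not computed.

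Ifitm3 was below PF in all 7 classes in both HS and QS. In endothelial cells the HS/PF ratio was 0.757 (0.751 to 0.764), which is not called, and the QS/PF ratio was 0.652 (0.646 to 0.659), which is. Pericytes, at 1121 CPM in HS, 953.9 CPM in QS and 1502 CPM in PF, gave 0.747 (0.705 to 0.790) in HS/PF and 0.635 (0.597 to 0.676) in QS/PF. Vascular smooth muscle, at 390.6, 415.2 and 587 CPM, gave 0.665 (0.625 to 0.709) and 0.707 (0.660 to 0.758), so there the HS ratio and not the QS ratio was called. That call lies at the threshold and was lost under 3 other settings, at 0.667 to 0.705. In ependymal cells, the ciliated lining of the ventricles, the level was 638.4 CPM in HS, 735.5 CPM in QS and 796.7 CPM in PF, with ratios of 0.801 (0.778 to 0.826) and 0.923 (0.896 to 0.952) and neither called.

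Microglia held less Ifitm3 than the vessel classes, and the libraries did not lie close together. They held 154.3 CPM in HS, 81.37 CPM in QS and 223.5 CPM in PF, with ratios of 0.690 (0.649 to 0.733) in HS/PF and 0.364 (0.340 to 0.390) in QS/PF. The share of microglia with an Ifitm3 UMI was 50.45% in HS, 37.39% in QS and 69.08% in PF, and it was 20.02%, 11.78% and 30.57% after thinning each cell to 2000 UMIs. Oligodendrocytes, a class low in the gene, gave shares of 34.48%, 24.35% and 51.58%, and 12.32%, 7.01% and 20.71% when thinned, with median depths of 7601.5, 7968 and 6969 UMIs against 7755, 8140.5 and 7803 UMIs in microglia. The low class thus had the same order of libraries as microglia, and so did Ifitm3 over all cells. The part of free RNA, which leaks from broken cells into droplets, was not tested, since its amount is not known. The oligodendrocyte ratios were 0.637 (0.568 to 0.713) in HS/PF and 0.336 (0.298 to 0.378) in QS/PF. The first was not called with doublets kept (0.813) or with cells of over 10% mitochondrial UMIs left out (0.668). Astrocytes, at 85.21 CPM in HS, 62.54 CPM in QS and 138.2 CPM in PF, gave 0.617 (0.546 to 0.696) and 0.453 (0.395 to 0.518). When an assumed 5% of each class sum was subtracted in the proportions of the whole library, the QS/PF ratio was 0.249 in microglia, 0.298 in astrocytes and 0 in oligodendrocytes, where nothing was left in QS. The HS/PF ratio was then 0.655 in microglia, 0.395 in astrocytes and 0.229 in oligodendrocytes, all called lower. The microglial HS/PF ratio was also called lower with a stricter gate (0.642), Leiden clusters (0.635) and a mean of per-cell CPM (0.638).

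Ifi27l2a was called lower in QS than in PF in 6 of the 7 classes. Astrocytes were the exception, at 0.763 (0.561 to 1.04), where 1 cell held 26.37% of the 91 UMIs in QS. The astrocyte ratio was 0.597 and called lower without the top cells. It was also called with Leiden clusters (0.368), doublets kept (0.573) and a mean of per-cell CPM (0.634). With 5% free RNA subtracted it was 0.999 and not called. Microglia held 193.7 CPM in HS, 113.4 CPM in QS and 260.2 CPM in PF, with ratios of 0.745 (0.705 to 0.787) and 0.436 (0.410 to 0.463). Endothelial cells held 90.19, 85.91 and 144.6 CPM, with ratios of 0.624 (0.595 to 0.654) and 0.594 (0.564 to 0.625), and both were called. Oligodendrocytes held 59.37, 19.88 and 104.4 CPM, with ratios of 0.569 (0.504 to 0.642) and 0.190 (0.164 to 0.221). In vascular smooth muscle, where the gene is scarce at 9.551, 7.767 and 27.62 CPM, the ratios were 0.346 and 0.281. Border-associated macrophages, a smaller class of 173, 123 and 253 cells, gave 0.616 (0.570 to 0.666) in HS/PF and 0.557 (0.505 to 0.613) in QS/PF, both called lower, where 2.73% and 5.28% of all genes in the class were.

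In pericytes single cells carried Ifi27l2a. Their levels were 84.76 CPM in HS, 5.589 CPM in QS and 60.89 CPM in PF, and 1 cell held 58.67% of the UMIs in HS and 1 cell 41.32% in PF. The QS/PF ratio was 0.0918, and it was 0.122 with the top cell of each library left out. The HS/PF ratio was 1.39, which is not called, and 0.980 without those cells, but 3.15 and called higher under a stricter gate. With 5% free RNA subtracted, QS/PF was 0.0247 and HS/PF was 1.52, which is called.

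Ifitm1 was called lower in QS than in PF in 4 classes. In endothelial cells the QS/PF ratio was 0.545 (0.516 to 0.576) and the HS/PF ratio 1.05 (1.01 to 1.10). In pericytes, where the gene is highest among the 11 ordered classes, the ratios were 1.18 (1.10 to 1.26) in QS/PF and 0.887 (0.824 to 0.954) in HS/PF, and neither was called. Microglia held only 10.53 CPM in HS, 1.535 CPM in QS and 5.413 CPM in PF. The HS level rested on 1 cell with 58.56% of the 111 UMIs, so the called HS/PF ratio of 1.95 (1.43 to 2.66) was 0.841 without the top cells, 0.827 under a stricter gate and 0.803 with Leiden clusters as classes. With 5% free RNA subtracted it was 5.03 and still called, and it was called under the other 5 settings that kept the threshold of 1.5, at 1.68 to 1.95. The QS/PF ratio of 0.284 (0.166 to 0.467) was no longer called after that subtraction, which left 0 UMIs in QS.

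**Figure D2:**
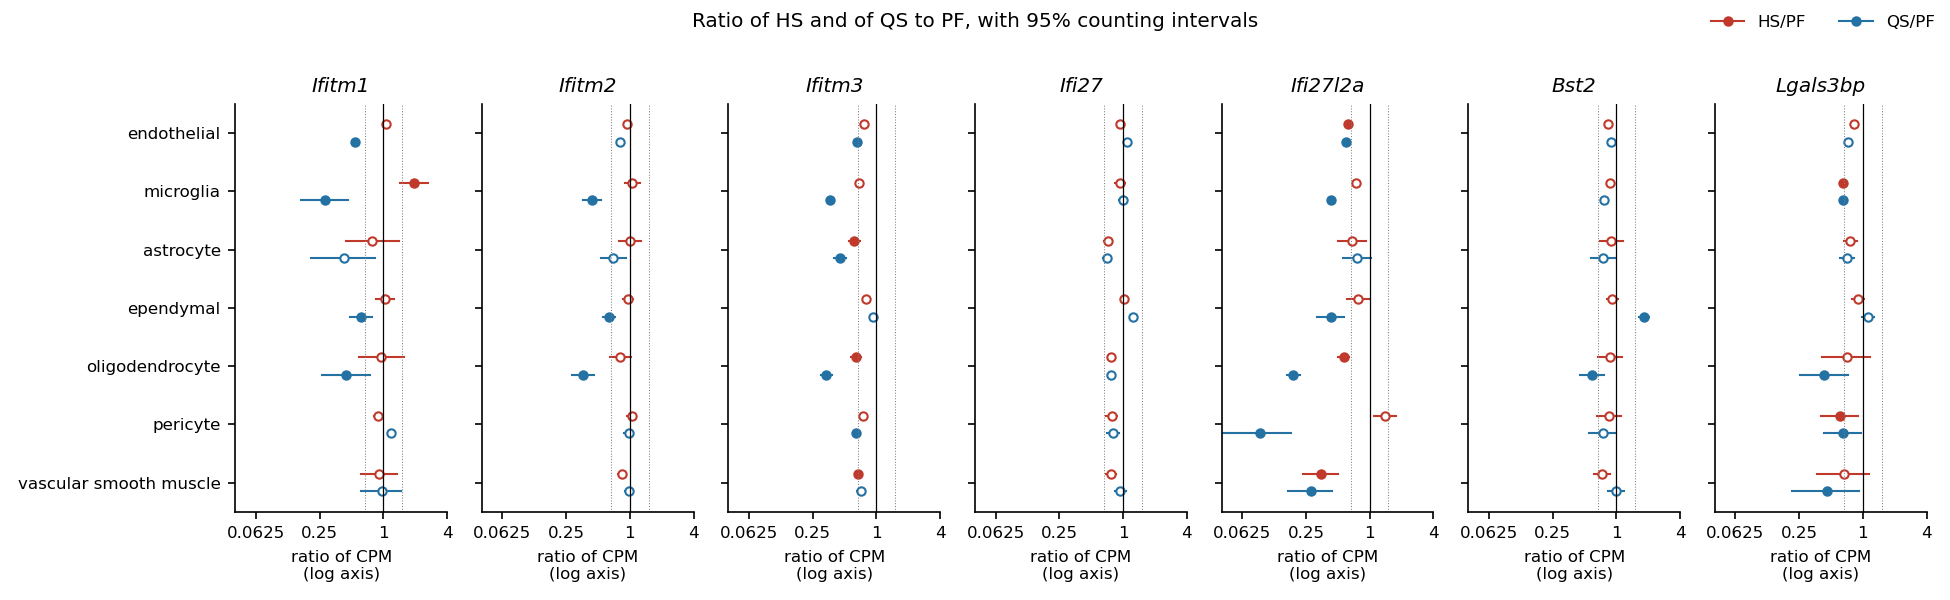
Ratio of CPM (log axis) of HS to PF and of QS to PF for the 7 genes in 7 cell classes, with exact 95% intervals. Filled points are called, dotted lines mark a ratio of 1.5 either way, and the QS/PF points lie left of 1 in 44 of 49 pairs, with the interval of Ifi27l2a in pericytes reaching the left edge.

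Among the 7 larger classes, Ifitm2 was highest in endothelial cells and pericytes, and its ratios to PF there were not called. Fibroblasts, the smaller class where Ifitm2 is highest among the 11 ordered classes, gave a called QS/PF ratio of 0.663 (0.575 to 0.761). Endothelial ratios were 0.936 (0.916 to 0.956) in HS/PF and 0.804 (0.785 to 0.824) in QS/PF, and pericyte ratios were 1.04 (0.947 to 1.14) and 0.974 (0.884 to 1.07). It was called lower in QS/PF in microglia (0.436), ependymal cells (0.638) and oligodendrocytes (0.362), at levels in QS of 11.04, 31.72 and 9.187 CPM. Those 3 levels in PF were 25.34, 49.72 and 25.37 CPM. With 5% free RNA subtracted, the ratio was 0.178 in microglia, 0.648 in ependymal cells and 0 in oligodendrocytes. Ifi27 was called in 0 of 7 classes in HS/PF, QS/PF and QS/HS, and its ratios to PF lay between 0.701 and 1.23. By comparison and direction, 1.7% to 4.03% of all pairs were called, so 0 of 7 does not set Ifi27 apart from most genes.

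Bst2 was the one member called higher in QS than in PF in the 7 larger classes. In ependymal cells it stood at 43.96 CPM in HS, 87.23 CPM in QS and 47.84 CPM in PF, with ratios of 1.82 (1.64 to 2.03) in QS/PF, 1.99 (1.79 to 2.20) in QS/HS and 0.919 (0.815 to 1.04) in HS/PF. The share of ependymal cells with a Bst2 UMI was 31.3% in HS, 38.53% in QS and 31.1% in PF, and 7.5%, 13.13% and 8.152% when thinned. In oligodendrocytes, the class lowest in Bst2, the thinned shares were 2.217%, 1.098% and 3.527%. In ependymal cells Ifi27l2a (0.427), Ifitm1 (0.620) and Ifitm2 (0.638) were called lower in QS/PF. With Leiden clusters as classes these 3 were 0.805, 0.684 and 0.804, and none of the 3 was called. Bst2 in endothelial cells and microglia was not called, with QS/PF ratios of 0.888 (0.864 to 0.914) and 0.759 (0.712 to 0.809).

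Lgals3bp in microglia was lower in both HS and QS by nearly the same amount. The ratios were 0.653 (0.610 to 0.699) in HS/PF, 0.654 (0.614 to 0.696) in QS/PF and 1.0 (0.929 to 1.08) in QS/HS. Both ratios to PF lie near the threshold, and the HS/PF call was lost with a mean of per-cell CPM, at 0.673. Of microglia, 48.26% in HS, 50.84% in QS and 62.75% in PF had a UMI, where 2.962%, 2.184% and 3.817% of oligodendrocytes did. Lgals3bp was also called lower in QS/PF in pericytes, oligodendrocytes (0.433) and vascular smooth muscle (0.461), all low in the gene. With 5% free RNA subtracted, the oligodendrocyte and smooth muscle ratios were 0 and 0.251, further below 1 but no longer called. The smooth muscle call was also lost with a stricter gate (0.4045), doublets kept (0.592) and a mean of per-cell CPM (0.512). The pericyte call was lost with Leiden clusters (0.687) and with doublets kept (0.705). Pericytes gave 0.606 in HS/PF and 0.650 in QS/PF from 41, 40 and 76 UMIs in HS, QS and PF.

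Endothelial cells were split further by markers of vessel type. Of the vessel types, Ifitm1 was highest in venous cells, at 685.9 CPM in HS, 537 CPM in QS and 625.2 CPM in PF, against 18.54, 10.4 and 9.267 CPM in capillary cells. Venous cells numbered 275 of 3837 endothelial cells in HS, 117 of 3248 in QS and 316 of 4058 in PF. Within venous cells the QS/PF ratio of Ifitm1 was 0.859 (0.788 to 0.935) and within capillary cells 1.12 (0.889 to 1.42), neither of them called, where that of all endothelial cells was 0.545. Endothelial cells given no vessel type (580 in HS, 398 in QS and 635 in PF) held 37.48%, 51.57% and 38.51% of the endothelial Ifitm1 UMIs, at 274.2, 220.1 and 246.3 CPM, and gave a QS/PF ratio of 0.894 (0.824 to 0.969), which is not called. Capillary cells had a called HS/PF ratio of 2.0 (1.63 to 2.46), from 296 UMIs in HS and 144 UMIs in PF. Arterial cells (1.24), venous cells (1.10), cells given no vessel type (1.11) and all endothelial cells (1.05) were not called in HS/PF. Other settings and the top cell were not examined by vessel type. Among all endothelial cells the top cell held 6.144% of the Ifitm1 UMIs in HS and 7.607% in PF.

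Ifitm3 was present in every vessel type. Capillary cells held 2016 CPM in HS, 1699 CPM in QS and 2655 CPM in PF, arterial cells 3030, 3084 and 4142 CPM, and venous cells 4262, 4299 and 5226 CPM. PF was highest in each, and the QS/PF ratios were 0.640 (0.630 to 0.650), 0.744 (0.729 to 0.760) and 0.823 (0.798 to 0.848), of which the capillary one was called. Bst2 was highest in fenestrated cells, which have pores and line vessels of the median eminence, at 685.2 CPM in HS and 673.8 CPM in PF, from 65 and 50 cells, with 4 such cells in QS.

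**Figure D3:**
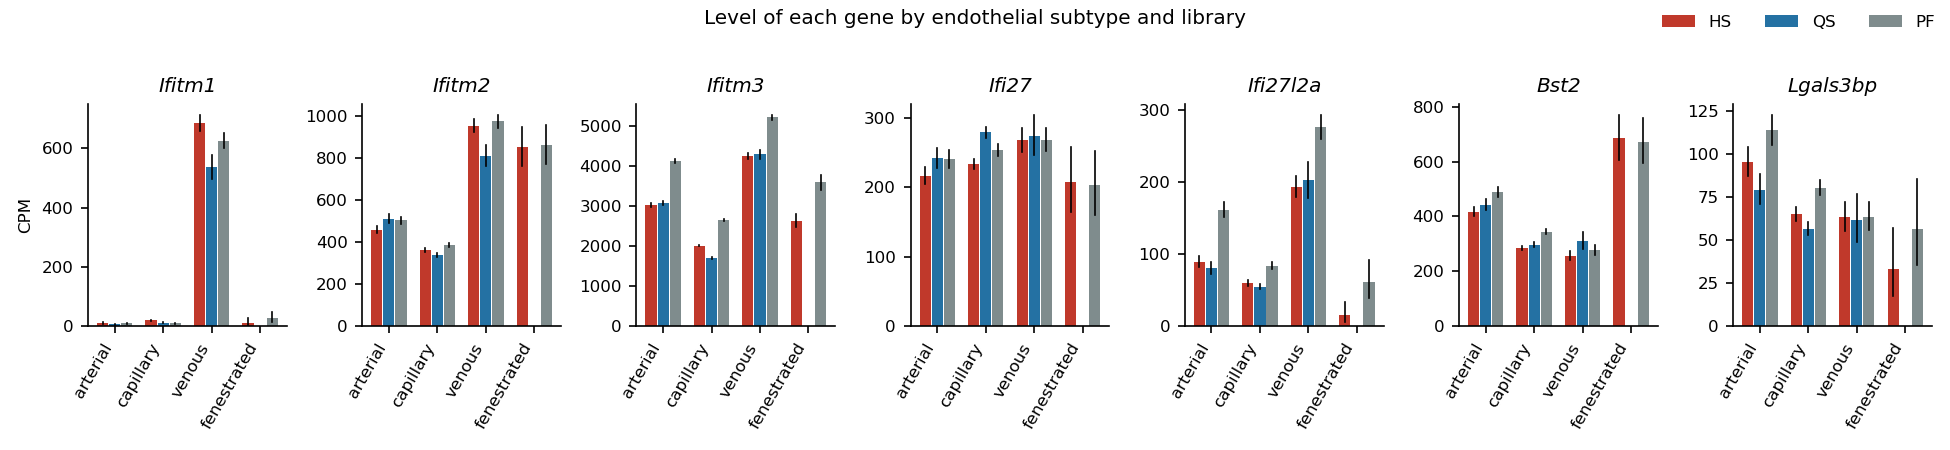
CPM of the 7 genes in arterial, capillary, venous and fenestrated endothelial cells, with 1 bar for each library (HS, QS and PF, left to right), lines for exact 95% Poisson intervals, and no bar where a library had fewer than 50 cells. Ifitm1 is high in venous cells and at most 25.62 CPM in the other types.

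The smaller classes are given as values, and other settings were not examined in them. In fibroblasts (261 cells in HS, 61 in QS and 272 in PF), 5 members were called lower in QS/PF, where 7.55% of all genes measured in the class were: Ifitm3 at 0.385 (0.346 to 0.427), Bst2 at 0.345 (0.243 to 0.478), Ifi27l2a at 0.267 (0.191 to 0.364), Ifitm1 at 0.558 (0.323 to 0.910) and Ifitm2 at 0.663 (0.575 to 0.761). In tanycytes (187, 104 and 62 cells) Ifi27l2a was called higher in QS/PF, at 1.57 (1.14 to 2.21), from 146 UMIs in QS and 51 UMIs in PF, where 4.4% of all genes in the class were called higher. The top cell held 15.07% of those UMIs in QS and 31.37% in PF. Ifitm1 had 0 UMIs in the 104 tanycytes of QS, which allows up to 2.598 CPM.

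The other genes of the interferon response were read from 3 lists. Of 27 other interferon-induced genes, 3 pairs of a gene and a class were called higher and 9 lower among 171 measured in HS/PF, with a median log2 ratio of -0.20. In QS/PF 13 were higher and 41 lower among 171, with a median of -0.35. Of the 16 ligands, receptors and signalling genes, 0 pairs were called higher and 7 lower among 103 in HS/PF, and 2 higher and 9 lower among 103 in QS/PF. Of 5 other genes of the IFITM and IFI27 families, 1 of 6 measured pairs was called in HS/PF (Ifitm6 in ependymal cells, 2.23, from 48 and 17 UMIs) and 0 of 8 in QS/PF. Over all pairs of a gene and a class, 2.09% were called higher and 1.76% lower in HS/PF, and 1.7% and 3.39% in QS/PF. The family pairs are too few to read against those shares.

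The counts of interferon-induced genes in QS/PF differed by class. In ependymal cells, 9 of 25 measured genes of the first list were called higher and 2 lower, where 1.6% of all genes in the class were higher and 2.22% lower, led by Ifit3 (3.19, 2.86 to 3.55) and the chemokine Cxcl10 (2.96, 2.66 to 3.29), beside Bst2 at 1.82 and Ifitm3 at 0.923. In microglia 3 of 27 were higher and 5 lower, where 1.6% and 4.13% of all genes were. There Iigp1, a GTPase of defence against intracellular parasites, was at 0.317 (0.219 to 0.450), near Ifitm3 at 0.364. The 3 that were higher were Ifit1 (1.92), Ifit2 (1.64) and Isg15 (1.59), which were chosen after their values were seen. In oligodendrocytes 0 of 24 were higher and 10 lower, where 2.56% and 4.28% of all genes were, with Iigp1 at 0.321. Pericytes had 0 of 22 higher and 12 lower, where 1.59% and 3.45% of all genes were, and of the signalling genes the transcription factor gene Irf7 was at 0.309 (0.173 to 0.523).

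In HS/PF, Cxcl10 in pericytes was at 3.12 (2.35 to 4.18), with 106.8 CPM in HS and 34.22 CPM in PF, while Ifit1 in the same cells was at 0.435 (0.242 to 0.753). The interferon gene Ifnb1 was called lower in HS/PF in ependymal cells (0.532) and oligodendrocytes (0.552). Its UMIs there were 27 and 24 in HS and 40 and 44 in PF. The levels were low, at 2.001 and 3.369 CPM in HS and 3.759 and 6.101 CPM in PF. Microglia held 191.5 CPM in HS and 211.8 CPM in PF, with an HS/PF ratio of 0.904 (0.854 to 0.958), which is not called. In ependymal cells the QS/HS ratio of Ifnb1 was 2.05 (1.25 to 3.43), called higher from 46 and 27 UMIs. The part of free RNA in these values was not tested. In QS/HS, Isg15 in ependymal cells was at 3.69 (3.24 to 4.22), and Cxcl10 in pericytes at 0.128 (0.0783 to 0.200).

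**Figure D4:**
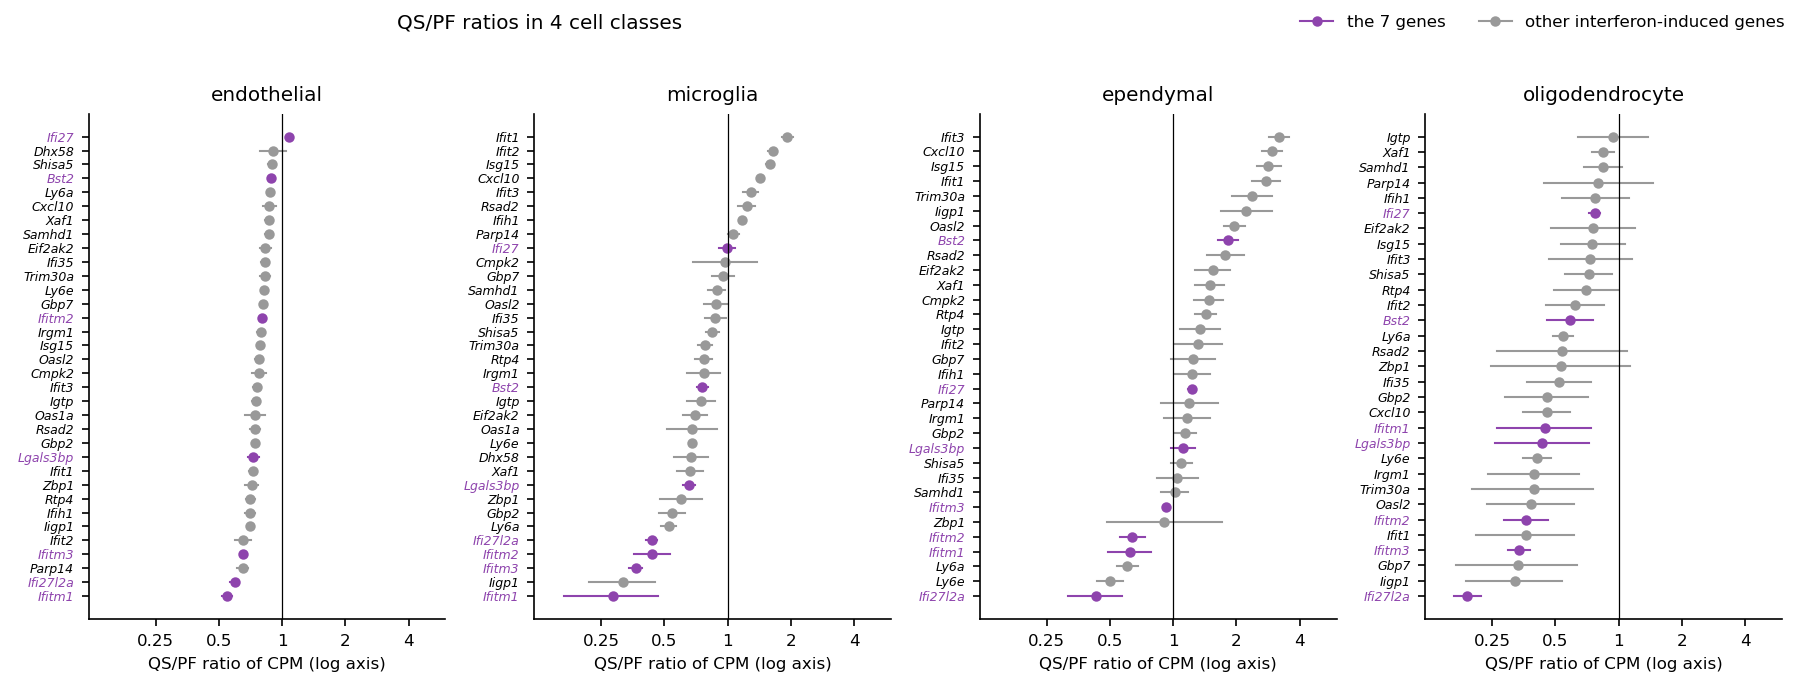
QS/PF ratio of CPM (log axis) of the 7 genes and of other interferon-induced genes with at least 30 UMIs in both libraries together, in endothelial cells, microglia, ependymal cells and oligodendrocytes, with exact 95% intervals. In ependymal cells Bst2 lies at 1.82 with the genes above 1, and in microglia Ifitm3 lies at 0.364 near the bottom.

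Cells given no class numbered 1300 in HS, 933 in QS and 1322 in PF. They held 23.74%, 16.69% and 22.69% of the Ifi27l2a UMIs, at 229.6 CPM, 168.5 CPM and 357.2 CPM. They also held 11.83%, 7.742% and 10.28% of the Ifitm3 UMIs. Their part in the results was not tested.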

How the data were processed

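Hypothalami were digested with collagenase II and libraries were made with the 10x Genomics 3' kit, per the labels' protocols. What the authors deposited are UMI counts for each gene and barcode, from Cell Ranger on mm10. Its version is 7.0.1 per the file headers but 5.0.0 per the submitters' processing notes, where Seurat 3.1.2 is also listed. The sources used here do not say whether intronic reads were counted.

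Barcodes under 500 UMIs or 200 genes, or with over 20% of UMIs from mitochondrial genes, were dropped, and 672 (HS), 727 (QS) and 765 (PF) doublets called by Scrublet in Scanpy 1.11.5 were removed. A cell took the class with most of its 7 markers detected, with at least 3 and a lead of at least 2 over the next class, and 2851 gated cells lay exactly at that cut. UMIs were summed per class and library. Intervals are exact 95% Poisson, Clopper-Pearson or conditional binomial ones, and an endothelial subtype needed at least 2 markers and a lead of 1. There was no test, because each group had 1 library. The members, lists and rules were chosen with earlier results of these data known, and the text names the 7 members, the 2 genes most like each, and from each list and comparison at most 4 called pairs of a gene and a class with the largest ratios. Ifit1, Ifit2, Isg15 and Ifnb1 in microglia lie outside that rule. In the lists, Mx1 and Ifi27l1 are not among the symbols used here. NumPy 2.4.6, SciPy 1.17.1, pandas 2.3.3 and matplotlib 3.10.9 were used.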

Additional observations from a re-analysis of the deposited data

Results flagged for a closer look

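Ifi27l2a went opposite ways in QS/PF between cell classes. It was called higher in tanycytes, at 1.57, and lower in endothelial cells (0.594), microglia (0.436), ependymal cells (0.427), oligodendrocytes (0.190), pericytes (0.0918), vascular smooth muscle (0.281), border-associated macrophages (0.557) and fibroblasts (0.267). Bst2 also went opposite ways: in QS/PF it was at 1.82 in ependymal cells against 0.589 in oligodendrocytes and 0.345 in fibroblasts, and in QS/HS at 1.99 in ependymal cells against 0.440 in fibroblasts. These differences between classes were not tested, since each group had 1 library. The ependymal value of Ifi27l2a was 0.804 and not called with Leiden clusters as classes. The tanycyte value rests on 51 UMIs in PF and the fibroblast values on 61 cells in QS. Other settings were not examined in tanycytes, fibroblasts or border-associated macrophages. Oligodendrocytes were the class lowest in Bst2, at 10.61 CPM in QS and 18.02 CPM in PF. Their QS/PF ratio was 0.3455 with 5% free RNA subtracted, and the part of free RNA was not tested.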

How the results depend on the processing

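No paired analysis was possible because each group had 1 library. Over 9 other settings and 2 more chosen after seeing the data, the counts of called pairs of the 7 genes moved by over 1.5 times when the ratio needed was 2 and when only the pairs at 10% or more of the highest class were counted. At a ratio of 2 they were 1 (HS/PF), 14 (QS/PF) and 6 (QS/HS), all of them lower, and those of the interferon lists together 4, 31 and 20, where they were 20, 65 and 49 at a ratio of 1.5. At 10% or more of the highest class, which was chosen after seeing the data, they were 5, 10 and 5, of which 5, 9 and 4 were lower. With free RNA subtracted at 5%, the interferon lists gave 31 calls in HS/PF. The shares of all genes called under these other settings were not computed, so these counts have no background beside them. Ratios called as reported that changed side of 1 were Ifitm1 in microglia in HS/PF (0.827 with the stricter gate, 0.803 with Leiden clusters and 0.841 without the top cell), Ifi27l2a in ependymal cells in QS/HS (1.23 with Leiden clusters, against 0.552) and Ifitm1 in oligodendrocytes in QS/PF (1.02 with a mean of per-cell CPM, against 0.444). Ratios not called as reported lay on the other side of 1 in 42 more values, of which 1 was called there, Ifi27l2a in astrocytes in QS/HS (0.526 with Leiden clusters, against 1.12). The cause was not tested, apart from the cell left out. Of 47 called ratios, 39 were still called the same way with Leiden clusters and 40 with per-cell CPM, and 42 to 47 under the 7 other settings that kept the ratio of 1.5 and all pairs. Low counts limit Ifitm1 outside vessel cells.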
